A study of Homo sapiens with 120 samples.

Results

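The suppressor of cytokine signalling (SOCS) family was measured in TK6 cells exposed to formaldehyde and to 4 reference genotoxicants. The family has 8 members, CISH and SOCS1 to SOCS7, and all 8 were taken by name. Each gene was represented by the probe set with the highest mean over all arrays among those annotated with that symbol alone. The array annotation gave 19775 genes with such a probe set, and 14023 of them, including all 8 members, were tested. To be tested, a gene had to reach a log2 value of 6.183 on at least 3 arrays. That limit is the median of the probe sets' own mean levels.

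SOCS proteins are feedback inhibitors of cytokine receptors. A cytokine brings JAK kinases together at its receptor, the kinases phosphorylate STAT transcription factors, and STATs switch on target genes that include CISH, SOCS1, SOCS2 and SOCS3. Each member pairs an SH2 domain, which binds phosphotyrosine, with a carboxy-terminal SOCS box, which recruits elongins B and C and a cullin to mark the bound protein for degradation. SOCS4 to SOCS7 are better known for acting on receptor tyrosine kinases and insulin receptor substrates than on cytokine receptors.

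TK6 is a human B lymphoblastoid line grown in suspension and used in genotoxicity testing. Total RNA of 120 samples was hybridised to 1-colour 3' expression arrays, in 40 groups of 3 experiments. The doses of formaldehyde, which crosslinks proteins to DNA, were 50, 100 and 200 µM. The clastogens, which break chromosomes, were alkylating agents that differ in the group they transfer. MMS, or methyl methanesulfonate, transfers a methyl group and was used at 80, 160 and 320 µM. EMS, its ethyl counterpart, was used at 1, 2 and 4 mM. Colcemid and vincristine, a colchicine-type and a vinca microtubule poison of the aneugen class, which disturb chromosome segregation, were each given at 3 doses that the labels write identically for both compounds. The titles and the treatment field write these doses differently, so they are called lowest, middle and highest labelled dose here. Cells were collected after 4 h or 24 h, and each chemical set of 24 arrays had its own untreated cultures at both times. The labels number the experiments 1 to 3 and do not say whether they were separate cultures, so p-values measure only the spread between these samples.

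The arrays resembled each other closely. Array medians lay between 6.133 and 6.243, no pair of arrays held identical values, and the lowest correlation between 2 arrays of a group was 0.9926. Of the B cell markers, 6 were measured and 5 were above 6.183 on all arrays. CD14, LYZ, MPO, CD3G and EPCAM, markers of monocytes, granulocytes, T cells and epithelium, reached it on 0 arrays. Of the other markers of these lists, however, NKG7, CSF1R, CDH1 and COL1A1 were above it on all 120 arrays, CD3D on 117, KRT18 on 116 and S100A8 on 109, and their part in the results was not tested. In RNA of whole cultures, fewer expressing cells and less RNA per cell cannot be told apart.

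The members' promoters were searched for STAT sites, since CISH and SOCS1 to SOCS3 are known STAT targets. RefSeq's promoter table (GRCh38.p14) held 5 of the 8 members. SOCS2, SOCS5 and SOCS7 had no entry. The 250 bases before the start of CISH, the classical STAT5 target, are printed with those of SOCS1 and SOCS4, which changed often in these data. Capitals mark each match to TTCNNNGAA, the palindrome bound by STAT dimers, which reads the same on both strands.

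CISH, chr3:50611775-50612024, minus strand: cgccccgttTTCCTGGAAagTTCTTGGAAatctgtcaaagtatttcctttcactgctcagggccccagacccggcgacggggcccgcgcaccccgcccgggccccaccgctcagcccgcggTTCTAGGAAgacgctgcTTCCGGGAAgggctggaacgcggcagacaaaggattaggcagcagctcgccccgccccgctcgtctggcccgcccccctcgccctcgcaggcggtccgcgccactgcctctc

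SOCS1, chr16:11256205-11256454, minus strand: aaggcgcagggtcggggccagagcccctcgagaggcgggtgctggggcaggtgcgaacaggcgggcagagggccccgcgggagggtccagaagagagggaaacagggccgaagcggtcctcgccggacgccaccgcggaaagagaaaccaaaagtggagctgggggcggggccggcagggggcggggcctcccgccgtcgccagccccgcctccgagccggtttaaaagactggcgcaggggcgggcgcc

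SOCS4, chr14:55026986-55027235, plus strand: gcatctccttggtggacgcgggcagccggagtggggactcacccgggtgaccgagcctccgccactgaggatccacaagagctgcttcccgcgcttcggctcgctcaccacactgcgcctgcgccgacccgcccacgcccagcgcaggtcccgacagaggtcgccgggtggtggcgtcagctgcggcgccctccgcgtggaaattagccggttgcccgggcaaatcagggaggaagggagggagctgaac

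The CISH window held 4 matches, in 2 pairs that begin 241 and 230 bases and 129 and 112 bases before the start. Over all 35116 promoters of the same length, 6.57% held at least 1 match and 0.0142% held 4 or more. The windows of SOCS1, SOCS4, SOCS6 and both starts listed for SOCS3 held 0 matches. The GC box GGGCGG, the site of the general activator SP1, was searched on both strands and occurred 3 times each in CISH, SOCS1 and SOCS6, 1 time in SOCS4 and 0 times in SOCS3, against 42.6% of all promoters with at least 1. Neither AP-1 (TGANTCA) nor CRE (TGACGTCA) matched any of these windows, against 6.57% and 1.65% of all promoters. A match describes letters and shows no binding.

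A total of 25 probe sets carried a single member's symbol. The sets used were 221223_x_at for CISH, 210001_s_at for SOCS1, 203373_at for SOCS2, 227697_at for SOCS3, 226178_at for SOCS4, 208127_s_at for SOCS5, 227542_at for SOCS6 and 228662_at for SOCS7. The set was above the limit on all 120 arrays for CISH, SOCS1, SOCS2, SOCS3, SOCS4 and SOCS7. The SOCS5 set reached it on 117 arrays, all but the 3 of 1 group. The SOCS6 set reached it on only 10 arrays, 6 of them at 4 h and 8 of them in the MMS set, so SOCS6 was near background and its values are imprecise. The CISH set is of the type whose probes can cross-hybridise with other transcripts.

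In untreated cells 4 of the 8 members were lower at 24 h than at 4 h, in a comparison over 30 arrays in which 52.1% of all genes tested were called (limma adjusted p under 0.05). Calls of lower values made up 26.4% of all genes tested. SOCS1, the strongest direct inhibitor of JAK kinases, ran from 9.35 to 9.78 at 4 h (median 9.53) and from 8.74 to 9.3 at 24 h (median 9.07), ranges that did not overlap. It fell by 0.48 ± 0.034 (log2, SE; adjusted p = 5.12e-13). SOCS3, which blocks the gp130 receptor chain, fell by 0.45 ± 0.053 (adjusted p = 1.99e-08), from a median of 7.31 to 6.96. SOCS2, an inhibitor of growth hormone signalling, fell by 0.36 ± 0.031 (adjusted p = 3.93e-11), and SOCS7 fell by 0.25 ± 0.032 (adjusted p = 1.43e-07). CISH differed by 0.07 ± 0.039 (adjusted p = 0.11, and 0.0261 with the experiment as a block). SOCS4, SOCS5 and SOCS6 differed by 0.03, 0.02 and 0.11 with adjusted p of 0.616, 0.628 and 0.17. Each treated group is therefore set against untreated cells of its own time.

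At 4 h the calls of lower members gathered at the highest formaldehyde dose, with 6 lower and 1 higher. At 24 h the highest dose gave 5 members higher and 0 lower with formaldehyde, 3 and 3 with MMS, 3 and 1 with EMS, 4 and 0 with colcemid and 4 and 0 with vincristine. Over 15 dose comparisons at 4 h, 24 of 120 member tests were called, 14 higher and 10 lower, while 10.1% of all gene tests were called. Over the 15 at 24 h, 49 of 120 were called, 40 higher and 9 lower, against 34.5% of all gene tests. Taken by gene over all 30, SOCS4 was called higher 16 times and lower 1 time, SOCS3 higher 13 times and lower 0 times, and SOCS2 higher 11 times and lower 1 time. SOCS1 was called higher 6 times and lower 7 times. SOCS7 was called higher 5 times and lower 2 times, SOCS5 higher 3 times and lower 1 time, SOCS6 lower 5 times and CISH lower 2 times.

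**Figure D1:**
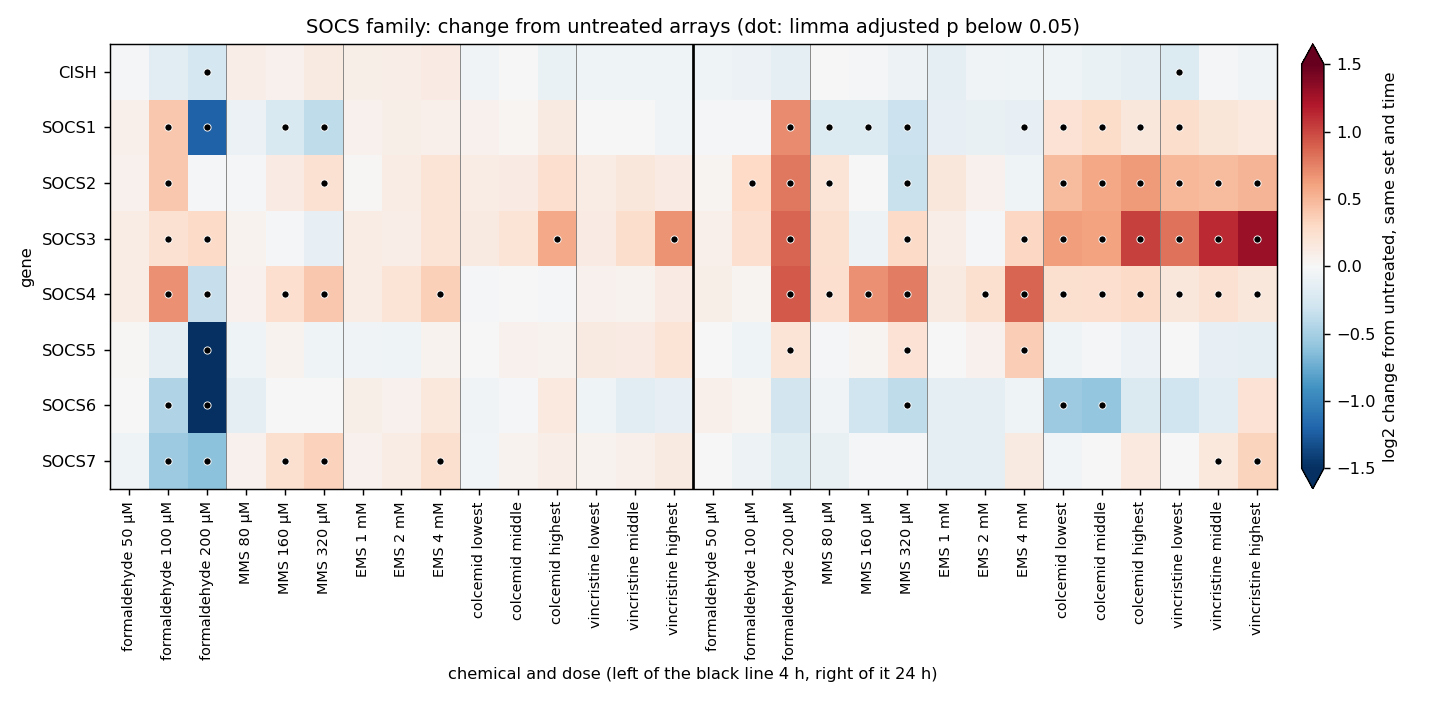
Heat map of the log2 change from untreated cells for the 8 SOCS genes (rows) in 30 chemical, dose and time groups (columns; 4 h left and 24 h right of the black line), each the mean of 3 arrays against 3, with black dots where the limma adjusted p was under 0.05. The darkest blue cells are SOCS5, SOCS6 and SOCS1 at 200 µM formaldehyde and 4 h, and the darkest red cells are SOCS3 with vincristine and colcemid at 24 h; changes beyond the ends of the colour scale, such as -2.46 for SOCS5, are drawn at its end colour.

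The counts by comparison, beside the share of all tested genes called there, were as follows. With formaldehyde at 4 h, 0, 6 and 7 of 8 members were called at 50, 100 and 200 µM, against 0.82%, 40.7% and 53.8%. At 24 h, 0, 1 and 5 were called, against 0%, 3.81% and 47.7%. With MMS at 4 h, 0, 3 and 4 were called at 80, 160 and 320 µM, against 1.6%, 13.5% and 28.6%, and at 24 h 3, 2 and 6, against 28.5%, 47.3% and 58.5%. With EMS at 4 h, 0, 0 and 2 were called at 1, 2 and 4 mM, against 0.143%, 1.06% and 9.6%, and at 24 h 0, 1 and 4, against 24.3%, 34.6% and 51.5%.

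With colcemid at 4 h, 0, 0 and 1 members were called from the lowest to the highest labelled dose, against 0%, 0.0642% and 0.913%. With vincristine at 4 h the counts were 0, 0 and 1, against 0%, 0.00713% and 0.25%. At 24 h they were 5, 5 and 4 for colcemid, against 37.3%, 37.7% and 36.4%, and 5, 4 and 4 for vincristine, against 37.4%, 36.9% and 35.7%. Where 4 or more members moved 1 way, the share of all genes called that way was as follows. At 100 µM formaldehyde and 4 h 4 members were higher, against 20.9%. At 200 µM 6 were lower at 4 h, against 24.2%, and 5 higher at 24 h, against 23.8%. At 24 h 4 members were higher at each colcemid dose, against 16.6%, 17.4% and 18%, and at each vincristine dose, against 16.6%, 17.4% and 17.5%. At 200 µM formaldehyde and 4 h the median member change was -0.48, against 0.08 over all tested genes, and at 24 h it was 0.46, against -0.03.

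SOCS5 showed the largest change of the family. It is known as an inhibitor of EGF receptor and interleukin-4 signalling. In untreated cells of the formaldehyde set at 4 h its log2 values were 7.96, 8.03 and 7.92, and at 50 and 100 µM they lay between 7.78 and 8.09. At 200 µM they were 5.59, 5.57 and 5.36, below the limit on all 3 arrays and below every other array of the series. SOCS5 fell by 2.46 ± 0.067 on the log2 scale (adjusted p = 6.92e-17), with -2.37, -2.46 and -2.56 in the 3 experiments. Since the treated arrays lay below the limit, no fold is given. The other SOCS5 probe sets gave -2.4 and -1.21 in the same comparison.

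At 24 h the same dose left SOCS5 at 8.23 on all 3 arrays, against 7.96, 8.09 and 8.02 without treatment, a rise of 0.2 ± 0.067 (adjusted p = 0.0151). The call was lost without experiment 1 (adjusted p = 0.171). The change at 24 h exceeded that at 4 h by 2.67 on the log2 scale. From 100 to 200 µM at 4 h SOCS5 fell by 2.32 ± 0.067 (adjusted p = 5.78e-16), while 100 µM itself gave -0.14 (adjusted p = 0.101, and 0.0472 with the experiment as a block). Apart from formaldehyde, SOCS5 was called only at 24 h with the highest alkylator doses. EMS at 4 mM gave 8.47, 8.66 and 8.56 against 8.24, 8.22 and 8.12, a rise of 0.37 ± 0.082 (adjusted p = 0.000592). MMS at 320 µM gave 8.64, 8.45 and 8.79 against 8.5, 8.45 and 8.27, overlapping groups with a rise of 0.22 (adjusted p = 0.0363). That call was lost without experiment 1 (0.26, adjusted p = 0.0827) or 3 (0.07, adjusted p = 0.53), without the filter (adjusted p = 0.0513) and with quantile normalization (0.1, adjusted p = 0.289).

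SOCS6, which is known to bind KIT and insulin receptor substrates, moved with SOCS5 at 200 µM formaldehyde and 4 h. Its values were 3.63, 3.98 and 3.34, against 5.76, 5.76 and 5.24 without treatment, and the groups did not overlap. SOCS6 fell by 1.94 ± 0.17 on the log2 scale (adjusted p = 4.23e-09). All 6 arrays lay below the limit of 6.183, so the size of this change is uncertain and no fold is given. The other SOCS6 probe sets, which were never above the limit, gave -0.89 (adjusted p = 1.57e-06) and 0.06. At 100 µM SOCS6 was at 5.02, 5.5 and 4.89, a change of -0.45 ± 0.17 (adjusted p = 0.0413) with overlapping groups, which was lost without experiment 1 (adjusted p = 0.383). At 24 h and 200 µM the change was -0.27 ± 0.17 (adjusted p = 0.214).

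With colcemid at 24 h SOCS6 fell by 0.55 at the lowest and by 0.58 at the middle labelled dose (SE 0.15 for both, adjusted p = 0.00479 and 0.00307). Both calls were lost without experiment 1 (adjusted p = 0.174 and 0.0709), and all arrays of the colcemid set lay below the limit. A second SOCS6 probe set, never above the limit, gave -0.08 and -0.12 at these doses (adjusted p = 0.553 and 0.305). The highest colcemid dose gave -0.22 on the probe set used (adjusted p = 0.287). With vincristine at 24 h the changes were -0.3, -0.16 and 0.22, none of them called, although the lowest was called with the experiment as a block (adjusted p = 0.0327). From the lowest to the highest vincristine dose SOCS6 rose by 0.51 ± 0.12 (adjusted p = 0.00774, and 0.0675 or 0.108 without experiment 1 or 3). With MMS at 320 µM and 24 h it fell by 0.38 ± 0.14 (adjusted p = 0.0226, and 0.0806 or 0.293 without experiment 1 or 2), with overlapping groups.

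SOCS1 went in opposite directions between 100 and 200 µM formaldehyde and again between 4 h and 24 h. Untreated cells at 4 h had 9.5, 9.45 and 9.78. At 100 µM the values were 9.79, 10 and 10.14, a rise of 0.4 ± 0.078 (adjusted p = 0.000287) in which all treated arrays exceeded all untreated ones. At 200 µM they were 8.28, 8.41 and 8.39, the lowest SOCS1 values of the series. From untreated cells SOCS1 fell by 1.21 ± 0.078, or 2.32-fold (adjusted p = 2.82e-11), and from 100 µM it fell by 1.61 ± 0.078 (adjusted p = 4.79e-13).

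After 24 h at 200 µM SOCS1 stood at 9.83, 9.78 and 9.79, against 9.07, 9.13 and 9.07 without treatment, a rise of 0.71 ± 0.078 or 1.63-fold (adjusted p = 1.45e-07). At 50 and 100 µM and 24 h all arrays stayed between 9.04 and 9.09. The difference between the 24 h and the 4 h change was 1.92. A second SOCS1 probe set had the same directions with smaller changes, 0.35 at 100 µM and -0.37 at 200 µM and 4 h, and 0.37 at 24 h. Of the others, 1 gave -0.06 at 200 µM and 4 h, and 1 that was never above the limit rose by 0.43 there (adjusted p = 0.000398), so the early fall of SOCS1 was not shared by all its probe sets. At 200 µM and 24 h these others gave 0.17 and 0.06 in that order (adjusted p = 0.22 and 0.681), so the late rise was not called on all probe sets either.

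With MMS SOCS1 fell in 5 of 6 comparisons. At 4 h the untreated arrays gave 9.54, 9.35 and 9.45, and 320 µM gave 9.01, 9.17 and 9.01, a change of -0.38 ± 0.07 (adjusted p = 0.000198). The change at 160 µM, -0.23 (adjusted p = 0.0316), was lost without any of the experiments (adjusted p from 0.055 to 0.29). At 24 h the changes were -0.21, -0.21 and -0.32 over the 3 doses. Of these, the calls at 80 and 160 µM were lost without experiment 1 (adjusted p = 0.265 and 0.0536) or 2 (0.18 and 0.158), and the groups overlapped at 160 µM. EMS at 4 mM and 24 h gave -0.12 ± 0.049 (adjusted p = 0.0431, and 0.216 or 0.382 without experiment 1 or 3), with overlapping groups, and EMS at 4 h gave changes of 0.06 to 0.09, none called. With colcemid at 24 h SOCS1 rose by 0.22, 0.27 and 0.17 (adjusted p = 0.00289, 0.000423 and 0.0164). The last had overlapping groups and was lost without experiment 1 or 3 (adjusted p = 0.316 and 0.173). Each of these colcemid calls was lost with the mean of probe sets (0.057, 0.095 and 0.037, adjusted p = 0.356, 0.0964 and 0.577). With vincristine SOCS1 rose by 0.26 ± 0.078 (adjusted p = 0.0104, and 0.101 without experiment 1) at the lowest labelled dose, and the other doses gave 0.18 and 0.15 (adjusted p = 0.0848 and 0.138).

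**Figure D2:**
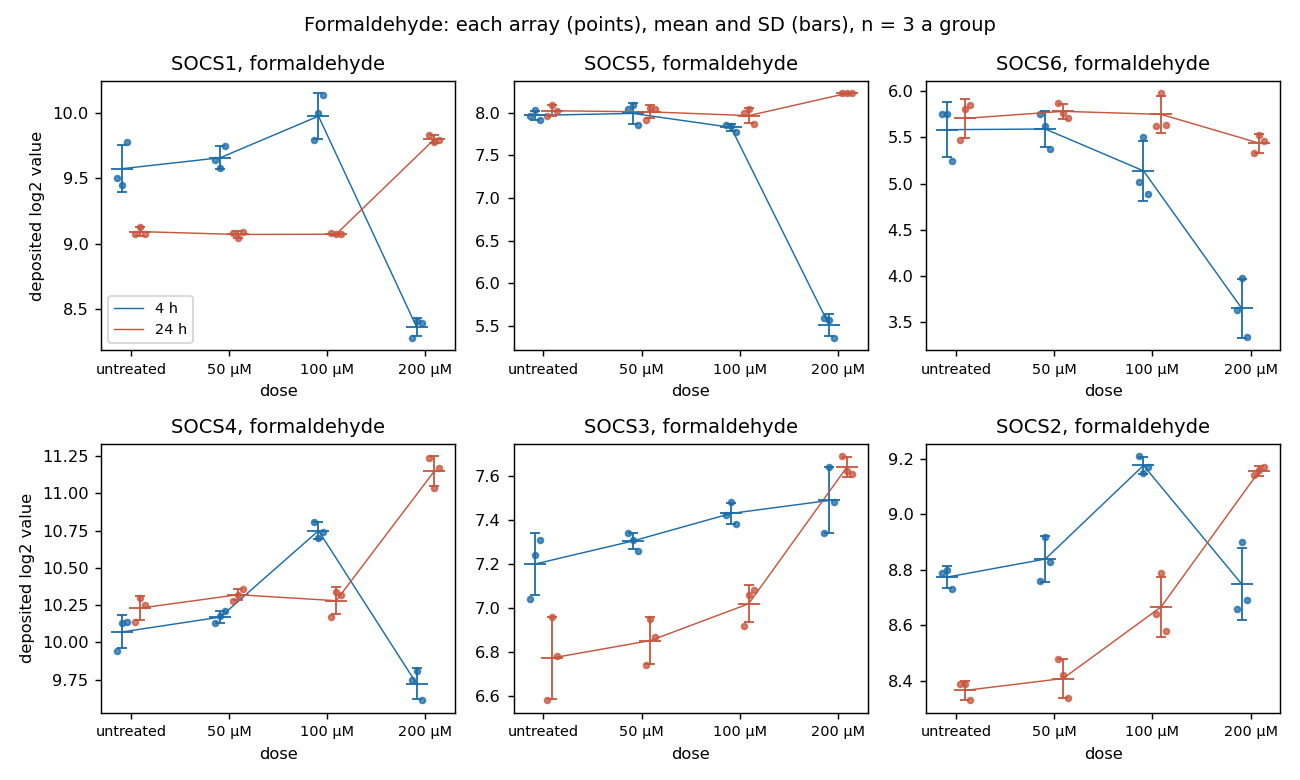
Deposited log2 values of 6 SOCS genes by formaldehyde dose, with 4 h in blue and 24 h in red; points are arrays, horizontal ticks group means and bars the SD of 3 experiments. At 4 h SOCS1, SOCS5, SOCS6 and SOCS4 lie lowest at 200 µM, and at 24 h SOCS1, SOCS4, SOCS3 and SOCS2 lie highest there.

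SOCS4, another inhibitor of EGF receptor signalling, was the member called most often. It shared the reversal of SOCS1 at 4 h with formaldehyde. Untreated arrays gave 9.94, 10.13 and 10.14, 100 µM gave 10.81, 10.7 and 10.74, and 200 µM gave 9.75, 9.81 and 9.61. SOCS4 rose by 0.68 ± 0.068 at 100 µM, or 1.61-fold (adjusted p = 5.86e-08), and fell by 0.34 ± 0.068 at 200 µM (adjusted p = 0.000249). After 24 h at 200 µM the values were 11.24, 11.04 and 11.17, against 10.14, 10.3 and 10.25, a rise of 0.92 ± 0.068 or 1.89-fold (adjusted p = 3.51e-10).

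With the alkylators SOCS4 rose with dose at both times. For MMS at 24 h the untreated arrays were at 10.34, 10.36 and 10.2. They were followed by 10.53, 10.62 and 10.49 at 80 µM, 11.02, 11.04 and 10.87 at 160 µM, and 11.15, 10.92 and 11.14 at 320 µM. The rises were 0.25, 0.68 and 0.77 (SE 0.063 for each; adjusted p = 0.0053, 1.23e-08 and 6.7e-10). That at 80 µM was lost without experiment 1 (adjusted p = 0.0749). For EMS at 24 h untreated arrays were at 10.31, 10.31 and 10.33 and 4 mM gave 11.18, 11.21 and 11.19, a rise of 0.87 ± 0.048 or 1.83-fold (adjusted p = 2.72e-12). EMS at 2 mM gave 0.24 (adjusted p = 0.000431) and EMS at 1 mM 0.13, which was called only with the experiment as a block (adjusted p = 0.0445). Since the doses of MMS and EMS differ, these values stand side by side without a test.

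At 4 h SOCS4 rose by 0.25 at 160 µM and by 0.4 at 320 µM MMS (adjusted p = 0.0109 and 4.27e-05), and by 0.36 at 4 mM EMS (adjusted p = 3.47e-05). The rise at 160 µM was lost without experiment 1 or 2 (adjusted p = 0.235 and 0.0522), and that at 2 mM EMS, 0.2, was called only with the experiment as a block (adjusted p = 0.0428). Its other probe set, which reached the limit on 8 arrays, gave 1.64 for 320 µM MMS, 1 for 4 mM EMS and 0.75 for 200 µM formaldehyde at 24 h. At lower doses and 24 h it gave -0.16 for 80 µM MMS (adjusted p = 0.415), where the set used was called higher, and -0.16 for 1 mM EMS and -0.24 for 100 µM formaldehyde, where it was not. At 4 h it gave -0.38 for 320 µM MMS (adjusted p = 0.0329) and -0.23 for 100 µM formaldehyde (adjusted p = 0.216). The early rises of SOCS4 therefore rest on a single probe set. On the probe set used, colcemid and vincristine at 24 h raised SOCS4 at every dose. The rises were 0.24, 0.25 and 0.29 with colcemid and 0.17, 0.23 and 0.17 with vincristine, with adjusted p between 2.06e-05 and 0.0286. The vincristine rises were lost without experiment 1 (adjusted p from 0.0904 to 0.134) or 2 (0.0691 to 0.189). Those at the middle and highest vincristine dose were also lost with the mean of probe sets (adjusted p = 0.135 and 0.158). The other probe set gave 0.24, 0.24 and 0.13 with colcemid (adjusted p from 0.149 to 0.54). With vincristine it gave 0.27, 0.08 and 0.12 (adjusted p from 0.163 to 0.736), so these calls also rest on a single probe set. At 4 h neither compound gave a call at any dose.

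**Figure D3:**
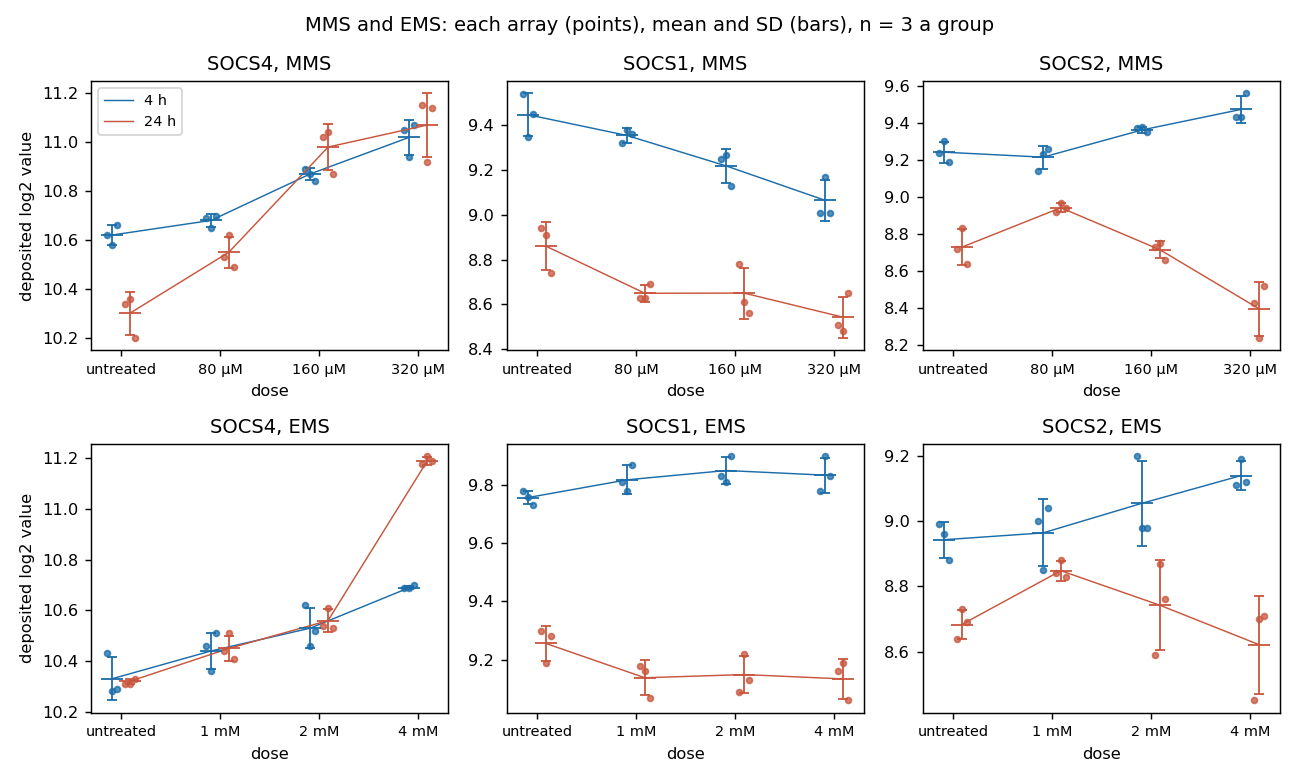
Deposited log2 values of SOCS4, SOCS1 and SOCS2 by MMS dose (upper row) and EMS dose (lower row), with 4 h in blue and 24 h in red; points are arrays, ticks means and bars the SD of 3 experiments. SOCS4 climbs with dose at both times, to 11.15 and 11.21 on the highest arrays at 24 h, whereas SOCS1 and SOCS2 lie lowest at 24 h with 320 µM MMS.

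SOCS3, a STAT3 target that shuts off interleukin-6 type receptors, was the member with the largest rises. On the probe set used, colcemid and vincristine raised it at every labelled dose at 24 h. Untreated cells of the colcemid set at 24 h had 6.81, 6.74 and 6.42. The lowest dose gave 7.18, 7.48 and 7.19, the middle dose 7.18, 7.31 and 7.28, and the highest dose 7.68, 7.67 and 7.66. The rises were 0.63, 0.6 and 1.02 (SE 0.092 for each), the last 2.02-fold (adjusted p = 2.44e-08).

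In the vincristine set untreated cells at 24 h had 6.62, 7.08 and 6.82. The 3 doses gave 7.64, 7.68 and 7.63, then 8.01, 7.95 and 7.91, then 8.15, 8.24 and 8.05, so that every treated array exceeded every untreated one. The rises were 0.81, 1.12 and 1.3 (SE 0.095 for each), the last 2.47-fold (adjusted p = 7.08e-10). From the lowest to the highest dose at 24 h SOCS3 rose by 0.49 ± 0.095 with vincristine (adjusted p = 0.00133) and by 0.39 ± 0.092 with colcemid (adjusted p = 0.00665, and 0.118 or 0.0684 without experiment 1 or 3). At 4 h SOCS3 was the only member called with either compound, in comparisons with few calls over all genes. The highest dose gave 7.69, 7.69 and 7.74 against 7.31, 7.08 and 7.01 for colcemid, a rise of 0.57 ± 0.092 (adjusted p = 0.00154), and 7.87, 7.85 and 7.92 against 7.38, 7.3 and 6.96 for vincristine, a rise of 0.67 ± 0.095 (adjusted p = 0.00326). The colcemid call was lost without experiment 2 or 3 (adjusted p = 0.103 and 0.137) and the vincristine call without experiment 1 or 3 (adjusted p = 0.125 and 0.175). Both calls were also lost with the mean of probe sets (0.15 and 0.25, adjusted p = 0.104 and 0.13).

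With 200 µM formaldehyde SOCS3 rose by 0.29 ± 0.088 at 4 h (adjusted p = 0.00863) and by 0.87 ± 0.088 at 24 h, or 1.82-fold (adjusted p = 3.72e-08). The 24 h arrays stood at 7.69, 7.62 and 7.61, against 6.58, 6.96 and 6.78. The call at 4 h was lost without experiment 2 (adjusted p = 0.0787), and that at 100 µM, 0.23 (adjusted p = 0.0404), without any of the experiments (0.0822 to 0.172). SOCS3 was the only member called higher at 200 µM and 4 h, where 6 others fell. The alkylators moved it less. EMS at 4 mM and 24 h gave 0.31 ± 0.098 (adjusted p = 0.0109, and 0.0529 or 0.0813 without experiment 1 or 3). MMS at 320 µM gave 0.29 ± 0.11 (adjusted p = 0.0312, and 0.3 or 0.443 without experiment 1 or 3), with 1 of the 3 experiments in the other direction. A second SOCS3 probe set rose by 0.31 with colcemid and by 0.27 with vincristine at the highest dose and 24 h (adjusted p = 0.00422 and 0.0183), and by 0.13 at 200 µM formaldehyde (adjusted p = 0.204). At 24 h it gave 0.12 and 0.1 at the lowest and middle colcemid doses (adjusted p = 0.298 and 0.426). The lowest and middle vincristine doses gave 0.19 and 0.4 on it (adjusted p = 0.113 and 0.000848). At 4 h it gave 0.18 and 0.25 at the highest colcemid and vincristine doses (adjusted p = 0.652 and 0.39). The calls of SOCS3 with these compounds at 4 h therefore rest on a single probe set. The remaining SOCS3 probe sets never reached the limit. Of these, 1 gave -0.22 for 200 µM formaldehyde at 24 h (adjusted p = 0.0451).

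SOCS2 followed SOCS3 with the microtubule poisons at 24 h. Untreated cells of the colcemid set had 8.47, 8.65 and 8.47, and the highest dose gave 9.12, 9.24 and 9.15. Over the 3 colcemid doses the rises were 0.47, 0.58 and 0.64 (SE 0.069 for each; adjusted p = 1.43e-05, 8.7e-07 and 2.73e-07). Over the 3 vincristine doses they were 0.5, 0.47 and 0.51 (SE 0.081 for each; adjusted p = 4.41e-05, 7.75e-05 and 3.26e-05). The second SOCS2 probe set rose by 0.59 and 0.34 at the highest doses. At 4 h the highest colcemid dose gave 0.25 (adjusted p = 0.103, and 0.00856 with the experiment as a block).

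**Figure D4:**
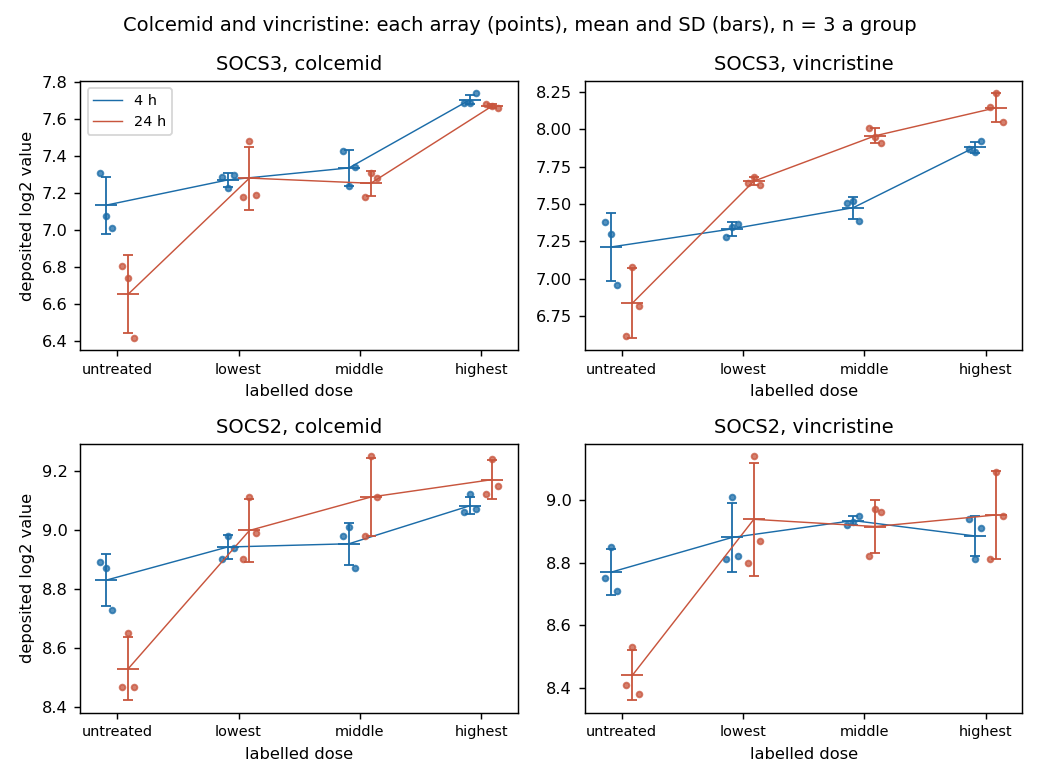
Deposited log2 values of SOCS3 (upper row) and SOCS2 (lower row) by labelled dose of colcemid and vincristine, with 4 h in blue and 24 h in red; points are arrays, ticks means and bars the SD of 3 experiments. At 24 h all treated arrays lie above all untreated ones for both genes, and SOCS3 with vincristine reaches 8.24.

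Formaldehyde raised SOCS2 at 100 µM and 4 h, to 9.21, 9.15 and 9.17 from 8.79, 8.8 and 8.73 (0.4 ± 0.063, adjusted p = 2.28e-05), and left it at -0.02 ± 0.063 at 200 µM (adjusted p = 0.753). From 100 to 200 µM SOCS2 fell by 0.43 ± 0.063 (adjusted p = 1.08e-05). At 24 h SOCS2 was the only member called at 100 µM, where it rose by 0.3 ± 0.063 (adjusted p = 0.00612, and 0.0872 to 0.118 without any of the experiments), and at 200 µM it rose by 0.79 ± 0.063 (adjusted p = 9.75e-10). MMS turned SOCS2 in opposite directions with dose and time. At 320 µM it rose by 0.23 ± 0.063 at 4 h (adjusted p = 0.00786) and fell by 0.33 ± 0.063 at 24 h (adjusted p = 0.000101). At 80 µM and 24 h it rose by 0.21 ± 0.063 (adjusted p = 0.0143). The rises at 4 h and at 80 µM were lost without experiment 1 (adjusted p = 0.104 and 0.158) or 3 (0.13 and 0.112). With EMS SOCS2 was called at 0 of 6 doses and times, with 0.17, 0.06 and -0.06 at 24 h.

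SOCS7, which is known to bind the adaptor NCK, fell early with formaldehyde and rose early with the alkylators. Untreated arrays of the formaldehyde set at 4 h were at 9.37, 9.42 and 9.39. They were followed by 8.81, 8.93 and 8.8 at 100 µM and by 8.76, 8.94 and 8.65 at 200 µM. The changes were -0.55 and -0.61 (SE 0.093 for both; adjusted p = 6.05e-05 and 1.2e-05). At 200 µM and 24 h the change was -0.18 (adjusted p = 0.121, and 0.0288 with the experiment as a block). At 4 h SOCS7 rose by 0.24 at 160 µM and by 0.35 at 320 µM MMS (adjusted p = 0.0139 and 0.000227), and by 0.24 at 4 mM EMS (adjusted p = 0.017). The rises at 160 µM MMS and with EMS were lost without any of the experiments (adjusted p from 0.0688 to 0.128 and from 0.0585 to 0.302). They were also lost with the mean of probe sets (0.13 and 0.045, adjusted p = 0.232 and 0.709). At 24 h SOCS7 rose with vincristine, by 0.33 ± 0.061 at the highest labelled dose (adjusted p = 0.000178) and by 0.16 at the middle dose (adjusted p = 0.0419, and 0.288 or 0.138 without experiment 1 or 2), the latter with overlapping groups. Both of these vincristine calls were lost with the mean of probe sets (0.13 and 0.029, adjusted p = 0.0662 and 0.728). The highest colcemid dose gave 0.15 (adjusted p = 0.073, and 0.0311 with the block). A second SOCS7 probe set gave -0.41 and -0.44 for 100 and 200 µM formaldehyde at 4 h.

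CISH, which acts on interleukin-2 and erythropoietin type receptors, barely moved. All its arrays lay between 7.49 and 7.99, a smaller span than that of any other member. At 200 µM formaldehyde and 4 h it was at 7.49, 7.5 and 7.54, against 7.67, 7.69 and 7.96, a change of -0.26 ± 0.086 (adjusted p = 0.0143, and 0.0526 without experiment 2). Without the untreated array of experiment 3, which correlated least with its group, it was -0.17 (adjusted p = 0.107). A second CISH probe set gave -0.26 (adjusted p = 0.00129). At the lowest vincristine dose and 24 h it fell by 0.2 ± 0.07 (adjusted p = 0.0317, and 0.119 or 0.137 without experiment 1 or 2). The change at 100 µM formaldehyde and 4 h, -0.17, was called only with the experiment as a block (adjusted p = 0.041).

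Ranked by group mean over all 40 groups, the order of most neighbours could not be resolved. The gap between neighbours was within their SDs for 39 of 39 neighbouring pairs of CISH, 38 of SOCS6, 37 each of SOCS2 and SOCS5, 35 each of SOCS3 and SOCS7, 33 of SOCS1 and 31 of SOCS4. The group at 200 µM formaldehyde and 4 h was lowest for CISH, SOCS1, SOCS4, SOCS5, SOCS6 and SOCS7. The lowest group was untreated cells at 24 h for SOCS2, in the formaldehyde set, and for SOCS3, in the colcemid set.

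RNA integrity was followed by the difference between the 3' and 5' probe sets of ACTB. At 4 h it was 0.367 ± 0.0317 at 200 µM formaldehyde and 0.443 ± 0.207 in untreated cells (SD, n = 3 for both). At 24 h it was 0.768 ± 0.0697 against 0.481 ± 0.0239 for 200 µM formaldehyde, 1.88 ± 0.26 against 0.941 ± 0.0792 for 320 µM MMS, and 0.664 ± 0.0342 against 0.521 ± 0.0715 for 4 mM EMS. Its part in the changes of the members was not tested. For the highest doses of colcemid and vincristine at 24 h it was 0.512 ± 0.0224 and 0.499 ± 0.0387, against 0.54 ± 0.0346 and 0.463 ± 0.0327.

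The change at the highest dose differed between 24 h and 4 h in 19 of 40 member tests, 16 of them towards higher values, while 36.4% of all gene tests were called. For formaldehyde 7 of 8 members were called higher, against 53.3% of genes in either direction and 25.8% higher, with differences from 0.43 for SOCS7 to 2.67 for SOCS5. CISH was not called. For MMS 4 members were called, against 45.2%. SOCS3 and SOCS4 were higher, by 0.41 and 0.37, and SOCS2 and SOCS7 lower, by -0.56 and -0.38. For EMS 3 were called, against 38.3%, with SOCS4 at 0.51, SOCS5 at 0.33 and SOCS1 at -0.2. For colcemid 3 were called, against 22.5%, with SOCS3 at 0.45, SOCS2 at 0.39 and SOCS4 at 0.31. For vincristine 2 were called, against 22.4%, with SOCS3 at 0.64 and SOCS2 at 0.39. Without experiment 1, calls were lost for SOCS7 with formaldehyde (0.41), SOCS3 and SOCS4 with MMS (both 0.37), SOCS1 and SOCS5 with EMS (-0.23 and 0.36), SOCS2 and SOCS3 with colcemid (0.34 and 0.43) and SOCS3 with vincristine (0.44). Without experiment 2 they were lost for SOCS7 with MMS (-0.28), SOCS1 with EMS (-0.23) and SOCS3 with colcemid (0.5). Without experiment 3 they were lost for SOCS3 with MMS (0.28), SOCS1 and SOCS5 with EMS (-0.14 and 0.29), SOCS2 and SOCS3 with colcemid (both 0.41) and SOCS2 with vincristine (0.4).

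Between the highest and the lowest dose of a chemical, 29 of 80 member tests were called, 19 higher and 10 lower, against 23.6% of all gene tests. Formaldehyde at 4 h gave 6 members lower at 200 than at 50 µM, led by SOCS5 (-2.49), SOCS6 (-1.95) and SOCS1 (-1.3), against 46.3% of genes called in either direction and 22.1% lower. At 24 h it gave 5 higher, led by SOCS4 (0.83), SOCS3 (0.79) and SOCS2 (0.75), against 46.3% in either direction and 22.2% higher. In MMS at 4 h 4 members were called, against 17.4%, with SOCS4 at 0.34 and SOCS1 at -0.29, and in EMS at 4 h 1, SOCS4 at 0.25, against 2.4%. In MMS at 24 h SOCS4 rose by 0.52 and SOCS2 fell by 0.55 from 80 to 320 µM, among 4 members called against 52.4%. In EMS at 24 h SOCS4 rose by 0.74, SOCS5 by 0.39 and SOCS7 by 0.28 from 1 to 4 mM and SOCS2 fell by 0.23, against 43.7%. Colcemid gave 1 member, SOCS3, at 4 h (0.43) and at 24 h (0.39), against 0.62% and 13.7%. Vincristine gave 0 at 4 h, against 0.00713%, and 3 at 24 h, SOCS3, SOCS6 and SOCS7, against 13.6%. The call of SOCS3 with colcemid at 4 h was lost without any of the experiments (adjusted p from 0.268 to 0.424), as were those of SOCS4 with EMS at 4 h (0.101 to 0.198) and of SOCS2 with EMS at 24 h (0.0523 to 0.123). With MMS at 4 h the calls of SOCS1, SOCS2, SOCS4 and SOCS7 were lost without experiment 1 (adjusted p = 0.0884, 0.178, 0.0589 and 0.081), that of SOCS7 without experiment 2 (0.0551) and that of SOCS1 without experiment 3 (0.0552). With MMS at 24 h those of SOCS5 and SOCS6 were lost without experiment 1 (0.128 and 0.154), that of SOCS6 without experiment 2 (0.242) and that of SOCS5 without experiment 3 (0.284). With formaldehyde the call of CISH at 4 h was lost without experiment 1 or 2 (0.136 and 0.102) and that of SOCS5 at 24 h without experiment 1 (0.171). At 24 h SOCS3 with colcemid lost its call without experiment 1 or 3 (0.118 and 0.0684), SOCS6 with vincristine without experiment 1 or 3 (0.0675 and 0.108) and SOCS7 with vincristine without experiment 1 (0.0946). Between 200 and 100 µM formaldehyde 10 of 16 member tests were called, 5 lower at 4 h and 5 higher at 24 h, against 38.8% of all gene tests. At 4 h 34.9% of genes were called and 17.5% were lower, and at 24 h 42.8% were called and 20.5% were higher.

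Colcemid and vincristine, given at identically labelled doses, differed in 1 of 48 member tests, over 6 comparisons in which 1.51% of all gene tests were called. At the middle dose and 24 h the change of SOCS3 was lower with colcemid than with vincristine by -0.52 ± 0.14 (95% interval -0.79 to -0.24, adjusted p = 0.0145). This call was lost without experiment 1 (-0.26, adjusted p = 0.608) or 2 (-0.62, adjusted p = 0.0533). The share of genes called was 6.14% there, 0%, 0% and 0.057% from the lowest to the highest dose at 4 h, and 0.834% and 2.02% at the lowest and highest dose at 24 h. At the highest dose the difference was -0.29 (interval -0.57 to -0.01, adjusted p = 0.441) and at the lowest -0.19 (interval -0.46 to 0.09, adjusted p = 0.772). For SOCS2 at 24 h the differences were -0.03, 0.11 and 0.13, the last with an interval of -0.09 to 0.35. For SOCS4 they were 0.07, 0.03 and 0.12, the last with an interval of -0.03 to 0.26. The widest uncertainty was that of SOCS6, with -0.43 (interval -0.84 to -0.03, adjusted p = 0.416) at the highest dose.

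At the highest doses the mean change of the alkylators differed from that of the microtubule poisons in 9 of 16 member tests, against 38.4% of all gene tests. At 4 h 3 members were called, against 22.6%, and at 24 h 6, against 54.1%, of which 4 were lower, against 24.5%. At 24 h SOCS3, SOCS2 and SOCS1 were lower with the alkylators, by -0.86 ± 0.1, -0.77 ± 0.072 and -0.38 ± 0.068 (adjusted p = 5.19e-12, 1.74e-16 and 6.93e-07), and SOCS7 by -0.19 ± 0.072 (adjusted p = 0.0178). SOCS4 and SOCS5 were higher, by 0.59 ± 0.056 and 0.4 ± 0.086 (adjusted p = 4.24e-16 and 3.09e-05). At 4 h SOCS3 was lower by -0.58 ± 0.1 (adjusted p = 4.25e-06), SOCS1 lower by -0.19 (adjusted p = 0.0269) and SOCS4 higher by 0.33 ± 0.056 (adjusted p = 1.27e-06). CISH at 0.21 and SOCS7 at 0.18 were called there only with the experiment as a block (adjusted p = 0.0152 and 0.014). The alkylators went separate ways for SOCS1 at 4 h, with -0.38 for 320 µM MMS and 0.08, not called, for 4 mM EMS. The highest colcemid and vincristine doses gave 0.13 and -0.05, neither called, so the lower class mean of SOCS1 came from MMS.

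Formaldehyde at 200 µM differed from both classes in 23 of 32 member tests, 7 higher and 16 lower, against 44.3% of all gene tests. At 4 h 7 of 8 members were lower than with the alkylators, led by SOCS5 (-2.45 ± 0.11), SOCS6 (-2.03 ± 0.18), SOCS1 (-1.06 ± 0.083) and SOCS7 (-0.9 ± 0.088), and 7 of 8 lower than with the microtubule poisons, led by SOCS5 (-2.59 ± 0.11). The shares of genes called were 49.5% and 50.6%, with 23.9% and 24.4% lower. The call of SOCS3 in the second comparison, -0.33 (adjusted p = 0.0231), was lost without experiment 3 (adjusted p = 0.484). The exception was SOCS3 in the first comparison (0.25, adjusted p = 0.093) and CISH in the second (-0.18, adjusted p = 0.134).

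At 24 h 4 members differed from the alkylators and 5 from the microtubule poisons, against 37.3% and 39.9% of genes. SOCS1, SOCS2 and SOCS3 were higher than with the alkylators, by 0.93 ± 0.083, 0.99 ± 0.088 and 0.57 ± 0.13, while SOCS4 differed by 0.1 ± 0.069 (interval -0.04 to 0.23, adjusted p = 0.302). Against the microtubule poisons 4 members were higher, against 20.5% of genes. SOCS4 was higher by 0.68 ± 0.069, SOCS1 by 0.54 ± 0.083, SOCS5 by 0.31 ± 0.11 and SOCS2 by 0.21 ± 0.088. SOCS3 differed by -0.29 ± 0.13 (adjusted p = 0.0536, and 0.0452 with the experiment as a block).

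The STATs and JAKs that SOCS proteins restrain were followed in the highest-dose comparisons, and the list counts are read against the shares of all genes called there. At 4 h with 200 µM formaldehyde 29.6% of all genes were called higher and 24.2% lower. At 24 h the shares called higher and lower were 23.8% and 23.9% with formaldehyde, 30.8% and 27.7% with MMS, 27.8% and 23.6% with EMS, 18% and 18.3% with colcemid and 17.5% and 18.2% with vincristine. STAT3 rose in all 5 chemicals at 24 h, by 1.33 ± 0.059 with formaldehyde, 1.29 ± 0.065 with MMS, 1.35 ± 0.056 with EMS, 0.6 ± 0.057 with colcemid and 0.47 ± 0.07 with vincristine. At 4 h it rose by 0.22 with formaldehyde and by 0.19 with EMS. STAT5A rose by 0.21 at 4 h with formaldehyde (adjusted p = 0.0403), and STAT5B by 0.12 at 24 h with EMS (adjusted p = 0.0302). In their other highest-dose comparisons neither was called. STAT6, the interleukin-4 STAT, fell by 0.6 with MMS and by 0.21 with EMS and rose by 0.21 with colcemid and by 0.22 with vincristine at 24 h. Of 4 JAK kinases tested, 1 rose with formaldehyde, 3 with MMS, 3 with EMS, 3 with colcemid and 2 with vincristine at 24 h, and 0 fell. TYK2 was among them each time, with 0.47, 0.7, 0.47, 0.28 and 0.29.

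Of 16 cytokine ligands 9 were tested. With colcemid at 24 h 6 of the 9 rose and 0 fell, against 18% of all genes higher (median change 0.78, against 0 over all tested genes). With vincristine 6 rose and 1 fell, against 17.5% higher (median 0.71, against 0). Interleukin-6, IL6, the classical inducer of SOCS3, rose by 1.47 and 2.14, IFNG, which induces SOCS1, by 1.42 and 1.58, and IL15 by 0.92 and 0.76. With formaldehyde at 24 h 5 rose and 1 fell, led by LIF at 1.7, IL15 at 0.97 and IL6 and IFNG at 0.92. With MMS at 24 h 3 rose and 4 fell, with LIF at 1.78 and IL6 at -1.3, and with EMS 4 rose and 3 fell, with IFNG at 1.86 and LIF at 1.82. At 4 h IL6 fell by 0.8 with formaldehyde and by 1.16 with MMS.

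Receptor chains, with 22 of 26 tested, rose in 10 and fell in 5 cases with formaldehyde at 24 h, 8 and 8 with MMS, 10 and 6 with EMS, and 11 and 2 with each microtubule poison. The median change of the list was 0.17, 0.04, 0.07, 0.2 and 0.22 in that order, against -0.03, -0.04, -0.01, 0 and 0 over all tested genes. IL10RA, the ligand-binding chain of the interleukin-10 receptor, rose every time, by 1.5, 1.14, 1.38, 1.13 and 1.14. At 4 h and 200 µM formaldehyde 2 rose and 9 fell, with IL21R at -1.02, PRLR at -0.98 and IFNGR1 at -0.69. STAT target genes, with 11 of 13 tested, counted 8 higher and 2 lower with formaldehyde at 24 h, 4 and 3 with MMS, 7 and 3 with EMS, 9 and 2 with colcemid and 7 and 1 with vincristine. Their median changes were 0.33, 0.08, 0.33, 0.43 and 0.27. The interferon-induced GTPase GBP1 rose by 1.44 with formaldehyde, 1.2 with EMS, 1.64 with colcemid and 1.67 with vincristine, and MYC fell by 1.86 with MMS and by 1.01 with EMS. At 4 h and 200 µM formaldehyde 6 rose and 3 fell, with MYC at -1.39 and PIM2 at 0.63.

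Of 12 other inhibitors of the pathway tested, 8 fell and 0 rose with 200 µM formaldehyde at 4 h, against 24.2% of all genes lower (median change -0.24, against 0.08 over all tested genes), with the SUMO ligase PIAS1 at -1.59 and the ubiquitin ligase CBLB at -0.82. At 24 h 3 rose and 5 fell, with the phosphatase PTPRC at -1 and PTPN11 at -0.64. PTPRC also fell by 1.49 with MMS and by 1.18 with EMS, and rose by 0.39 with colcemid. The ligase core that SOCS boxes recruit, 8 of 8 tested, gave 4 higher and 2 lower at 4 h and 1 higher and 2 lower at 24 h with formaldehyde. CUL5, the SOCS-box cullin, fell by 0.45 at 4 h. With MMS at 24 h 2 rose and 3 fell, with EMS 1 and 3, and with each microtubule poison 3 and 0.

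Other SOCS-box proteins, 14 of 16 tested, gave 3 higher and 5 lower at 4 h with 200 µM formaldehyde, with ASB7 at -1.42 and ASB13 at -0.8, and 4 higher and 3 lower at 24 h, with SPSB3 at 0.71. These counts are near the shares of all genes called, 53.8% and 47.7% in either direction. With MMS at 24 h 5 rose and 4 fell, with EMS 8 and 4, with colcemid 2 and 1 and with vincristine 1 and 1, the last 2 below the 36.4% and 35.7% of all genes called. Receptor tyrosine kinase and IRS partners, 7 of 9 tested, gave 1 higher and 4 lower at 4 h with formaldehyde. NCK1, the adaptor that SOCS7 binds, fell by 1.5 there, SOS1 fell by 0.79, and IRS2, an insulin receptor substrate, rose by 0.59. IRS2 also rose by 0.93 at 24 h with formaldehyde and by 1.13 at 4 h and 1.12 at 24 h with MMS. In the other highest-dose comparisons of that list at 24 h, 2 rose and 2 fell with MMS, 2 and 1 with EMS, 2 and 0 with colcemid, and 1 and 1 with vincristine.

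The likeness between genes was described by the Pearson correlation of their 30 changes from untreated cells, which share untreated arrays within each set and time. Within the family it was highest for SOCS5 and SOCS6 (0.829), SOCS2 and SOCS3 (0.707) and SOCS6 and SOCS7 (0.699). It was lowest for CISH and SOCS3 (-0.434). The changes of SOCS5 and SOCS6 at 200 µM formaldehyde and 4 h, -2.46 and -1.94, stood far from their others. Those lay between -0.14 and 0.37 for SOCS5 and between -0.58 and 0.22 for SOCS6. How far the correlations of SOCS5 and SOCS6, with each other and with other genes, rest on that comparison was not tested. Over all other tested genes, the nearest to SOCS5 were MSL2 (0.979), FBXO34 (0.974) and ZFP1 (0.972), and to SOCS6 PAK2 (0.935), BTBD7 (0.933) and RASA2 (0.918). SOCS4 came nearest to PPM1D (0.936), TRIM35 (0.915) and DUSP14 (0.914), and SOCS3 to CCL20 (0.925), TNFRSF9 (0.916) and ZBTB10 (0.911). SOCS2 came nearest to CA5BP1 (0.912), TNFSF13B (0.888) and OTP (0.882), and SOCS1 to FEM1C (0.893), MMD (0.857) and B3GNT2 (0.849). For SOCS7 the nearest were FAF2 (0.844), E2F6 (0.826) and H2BW4P (0.824), and for CISH LOC105377134 (0.828), JDP2 (0.799) and TMEM170B (0.797).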

How the data were processed

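The authors deposited log2 values computed with RMA, per the submitters' processing notes. Its version and software, and if the 120 arrays went through it jointly, are not given in the sources used here. The 54675 probe sets include 62 controls. Of the rest, 41091 carried 1 gene symbol, 1801 several and 11721 none in the array annotation.

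For comparisons within a chemical, each chemical set of 24 arrays was fitted with limma 3.58.1 (R 4.3.3) with 8 group means. Colcemid and vincristine were compared in 1 fit of their 48 arrays. Comparisons with or between the classes used 1 fit of all 120 arrays with 40 group means. Untreated cells were compared between times over 30 arrays, with the chemical set as a covariate. In each case p-values were adjusted by Benjamini-Hochberg over all 14023 tested genes of a comparison. Calls were made at an adjusted p of 0.05, and changes are given with their SE. The script was tested on simulated data. Members and gene lists were chosen with earlier results of these data known. Of each list, up to 4 called genes could be named per highest-dose comparison, those with the largest change shared in direction by the 3 experiments, besides STAT3, STAT5A and STAT5B, and for each member the 3 genes most like it. The alternatives were the experiment as a block, no filter, the mean of a gene's probe sets, each other probe set of a member, quantile normalization, all arrays in 1 fit, each experiment left out, and, chosen after seeing the data, 1 untreated array left out.

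The labels name the replicates experiment 1 to 3 in every group. This was taken to pair them in the block alternative and in the changes given by experiment. The main fits had no term for the experiment. Same-numbered arrays deviated together (median correlation 0.286 over 30 comparisons, above 0 in 29, every pair over 0.1 in 19), against -0.141 for other numbers. Array number limits the precision. Promoters were read from RefSeq's table. Protein sequences were not used here.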

Additional observations from a re-analysis of the deposited data

Results flagged for a closer look

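For 19 pairs of a gene and a chemical the change at the highest dose differed between 24 h and 4 h by a test of that difference (limma adjusted p under 0.05). For formaldehyde the differences, 24 h minus 4 h, were 1.92 for SOCS1, 0.81 for SOCS2, 0.58 for SOCS3, 1.26 for SOCS4, 2.67 for SOCS5, 1.67 for SOCS6 and 0.43 for SOCS7. For MMS they were -0.56 for SOCS2, 0.41 for SOCS3, 0.37 for SOCS4 and -0.38 for SOCS7. For EMS they were -0.2 for SOCS1, 0.51 for SOCS4 and 0.33 for SOCS5. For colcemid they were 0.39 for SOCS2, 0.45 for SOCS3 and 0.31 for SOCS4, and for vincristine 0.39 for SOCS2 and 0.64 for SOCS3. SOCS1, SOCS4 and SOCS5 fell at 4 h and rose at 24 h with 200 µM formaldehyde, and SOCS2 rose at 4 h and fell at 24 h with 320 µM MMS. In untreated cells SOCS1, SOCS2, SOCS3 and SOCS7 were lower at 24 h than at 4 h, so the reference level of these genes also moved between the times.

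The change of SOCS3 at the middle labelled dose and 24 h differed between colcemid and vincristine, by -0.52 on the log2 scale. Without experiment 1 the difference was -0.26 (adjusted p = 0.608) and without experiment 2 -0.62 (adjusted p = 0.0533), neither called, and with the mean of probe sets 0 such calls were made.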

How the results depend on the processing

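Of 73 called dose comparisons, 37 were kept in every setting other than single other probe sets. With the replicate block all 73 were kept, and the calls came to 28 at 4 h and 55 at 24 h, with 22 member tests gained over all comparisons and 0 lost. Without the filter 67 were kept, with quantile normalization 68, with all arrays in 1 fit 69, and with the mean of probe sets 47 of 68, SOCS6 not being tested there. Leaving out experiment 1, 2 or 3 kept 45, 56 and 59. Leaving out an experiment gave 29 to 44 calls at 24 h (main 49), 11 to 17 between times (main 19), 16 to 24 between doses (main 29) and 0 to 1 between colcemid and vincristine (main 1). The lowest count came without experiment 1 each time, tied with experiment 2 in the last. With the mean of probe sets the calls were 14 at 4 h (main 24), 10 between times and 0 between colcemid and vincristine, and with quantile normalization 2 for the last.

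The mean of probe sets turned the sign of SOCS2 (0.014) and SOCS3 (0.063) in formaldehyde minus aneugen at 4 h, SOCS3 in the formaldehyde time difference (-0.067), SOCS4 at 160 µM MMS and 4 h (-0.0082), and SOCS4 in formaldehyde minus clastogen at 24 h (-0.24). Counts of calls with all arrays in 1 fit are not given for the comparisons of untreated cells and between chemicals.

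Single other probe sets gave 38 values of the opposite sign in called dose comparisons, some of which were turned by more than 1 probe set. SOCS4 1552792_at (8 arrays at the limit) gave -0.067, -0.23, -0.26 and -0.38 at 4 h for EMS 4 mM, formaldehyde 100 µM and MMS 160 and 320 µM, and -0.16 for MMS 80 µM at 24 h. SOCS3 206359_at gave -0.069 for EMS 4 mM at 24 h, and CISH 223961_s_at 0.018 for formaldehyde 200 µM at 4 h. The other turned values came from probe sets that never reach the limit. SOCS3 206360_s_at gave -0.15 for colcemid highest at 4 h, and at 24 h -0.046 for colcemid lowest, -0.16 for EMS 4 mM, -0.22 for formaldehyde 200 µM and -0.095, -0.021 and -0.016 for the vincristine doses. SOCS3 214105_at gave -0.0077 and -0.0071 for colcemid and vincristine highest at 4 h, and at 24 h -0.18 for colcemid lowest, -0.00044 for formaldehyde 200 µM, -0.0041 for MMS 320 µM and -0.047 and -0.036 for vincristine lowest and middle. SOCS1 210000_s_at gave -0.22, -0.14 and -0.12 for the colcemid doses at 24 h and 0.43 for formaldehyde 200 µM at 4 h. SOCS7 214015_at gave at 4 h -0.29 for EMS 4 mM, 0.14 for formaldehyde 200 µM and -0.045 and -0.062 for MMS 160 and 320 µM, and at 24 h -0.18 and -0.19 for vincristine middle and highest. SOCS6 214462_at gave 0.062 and 0.055 for formaldehyde 100 and 200 µM at 4 h. SOCS2 232539_at gave at 24 h -0.068 and -0.10 for colcemid lowest and middle, -0.0056 for MMS 80 µM and -0.092 and -0.22 for vincristine lowest and highest. The cause was not tested. Signals near background limit SOCS6 and the dim probe sets.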
